A study of Homo sapiens with 6 samples.

Results

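Hedgehog pathway genes were measured by RNA sequencing in cells that overexpress SHC4 and in their controls. The 9 genes were taken by symbol from a fixed list of receptors, GLI factors and targets: GLI1, GLI2, GLI3, PTCH1, SMO, SUFU, HHIP, BOC and GAS1. All 9 were found among the 28181 Ensembl identifiers of the 6 libraries. UE7T-9 is a bone marrow mesenchymal stem cell line of human origin, immortalized with hTERT and the E7 gene of human papillomavirus. UE7T-9 SHC4 (3 samples, genotype SHC4-OE) had been infected with a lentivirus that expresses SHC4 from a CMV promoter and selected with puromycin. UE7T-9 Cont (3 samples) carried a GFP lentivirus according to the methods of the study, whereas the sample labels call it nontarget with genotype WT. The labels number the samples as biological replicates 1 to 3, but no source says whether they were separate infections, clones or cultures. The p-values below therefore set the group difference against a spread estimated from these samples, whatever their origin. The comparison asks whether SHC4 overexpression moved with the transcript levels of a pathway that signals through the primary cilium.

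Hedgehog ligands bind the receptor PTCH1 together with the co-receptors GAS1, BOC and CDON. Free PTCH1 holds back SMO, and ligand binding lets SMO enter the primary cilium and act on the transcription factors GLI2 and GLI3, which SUFU otherwise restrains. GLI1, PTCH1 and HHIP are themselves transcribed when the pathway is active, and are the usual transcript readouts of it. In marrow stroma the pathway is known for its part in skeletal development and bone formation.

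PTCH1 has a promoter in which the letters of the GLI consensus can be read directly, so that sequence is shown before the levels. The window holds the 250 bases before 1 of the 5 PTCH1 start sites in the RefSeq promoter table. It lies at chr9:95509267-95509516 on the minus strand of GRCh38.p14, and no exon of GENCODE 29 overlaps it. Capitals mark the consensus GACCACCCA, which here reads on the opposite strand and begins 172 bases before the start site.

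PTCH1: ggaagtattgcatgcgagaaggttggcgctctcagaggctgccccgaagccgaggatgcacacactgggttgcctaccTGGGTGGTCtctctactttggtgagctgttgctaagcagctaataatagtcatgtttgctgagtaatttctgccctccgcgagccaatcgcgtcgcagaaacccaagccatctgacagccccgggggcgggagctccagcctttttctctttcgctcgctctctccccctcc

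The motif was searched on both strands of the 250 bases before each start site. It was found without mismatch in 70 of 35116 promoters (0.199%). Of the members, 7 of 9 matched the table with 13 windows, and this PTCH1 window was the only exact match among them. GLI1 and GLI3 had no entry. None of the 97 windows of 56 other pathway genes held an exact match. With 1 mismatch allowed, 2039 of all promoters (5.81%) held it, as did 2 of the 13 member windows, both of PTCH1, and 3 of the 97 others, those of STK36, EVC and GNAS. A match of letters describes the sequence and does not show that a GLI factor bound there.

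Each file gives the gene counts of a library divided by its size factor, called the normalized count here. Recovered depth was 18144993 to 27721397 reads per library, and 3 reads correspond to a normalized count of 3.53 or less. SHC4 was 56.5 to 157 in the controls and between 119166 and 155006 in UE7T-9 SHC4. UE7T-9 Cont replicate 1 stood apart from its group. Over all genes its log2 values correlated at 0.975 with UE7T-9 SHC4 replicate 1, against 0.967 and 0.962 with the other 2 controls. All 10 mesenchymal stromal markers were measured, with a summed normalized count of 215735 to 651281 in the controls against 422551 to 590484 in UE7T-9 SHC4. COL1A1 and COL1A2 made up most of this sum. PDGFRB, a pericyte and stromal receptor, was 4122, 1487 and 1678 in the controls against 6635, 5281 and 5178 in UE7T-9 SHC4, without overlap (DESeq2 adjusted p = 0.0171, limma adjusted p = 0.162). The means of DCN and THY1 were 2.04-fold and 1.92-fold those of the controls and that of NT5E 0.762-fold, with overlapping groups and no call. Of the other cell types, 4 of 6 leukocyte markers summed to 71.2 to 115 over all libraries, 4 of 4 endothelial ones to 49.2 to 96.7 and 4 of 5 epithelial ones to at most 43.6. The leukocyte gene PTPRC (0 to 6.82), the endothelial gene CDH5 (0 to 1.18) and the epithelial gene EPCAM (0 to 4.92) were near 0. Some other genes of these lists were higher. Among leukocyte genes, CD14 was 52.7 to 88.3 and ITGAM 12.8 to 42.5. Among endothelial genes, VWF was 34.4 to 65.3 and PECAM1 reached 38.4, and the epithelial gene CDH1 reached 17.6. The 3 haematopoietic progenitor markers measured summed to 115 to 205 in UE7T-9 Cont and to 247 to 362 in UE7T-9 SHC4. Most of that sum was KIT, while CD34 stayed between 39.6 and 52.7. The part of these markers in the results below was not tested. In bulk RNA, fewer cells of a type and less RNA per cell cannot be told apart.

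No Hedgehog member was called by limma at an adjusted p below 0.05, the threshold for a call throughout. The limma test ran on log2(normalized count + 1), and 15 of 23040 genes (0.0651%) were called in either direction. Without adjustment, 2 of the 9 members had a p below 0.05, SMO and GAS1, both higher in UE7T-9 SHC4, against 7.47% of all genes higher and 6.96% lower. The edgeR test on recovered reads also called 0 members, against 0.0694% of all genes in either direction. DESeq2 called 1 member, GAS1, which was higher in UE7T-9 SHC4, as were 2.06% of the genes that DESeq2 gave an adjusted p. The log2 fold change was above 0 for 8 of 9 members and for 49.7% of all genes. It was above 0 for 6 of 9 members without UE7T-9 Cont replicate 3 and likewise without UE7T-9 SHC4 replicate 1, and for 7 of 9 when libraries were scaled by their total, which put the median of all genes at -0.10. The median over the members was 0.51 in limma, beside -0.004 over all genes. It was 0.22 in DESeq2 and 0.21 in edgeR, beside -0.031 and 0.003 over all genes with a value there. The members PTCH1, SUFU and HHIP restrain the pathway, while SMO and GLI2 carry its signal. The count of 8 of 9 and the median therefore give no direction of signalling.

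**Figure D1:**
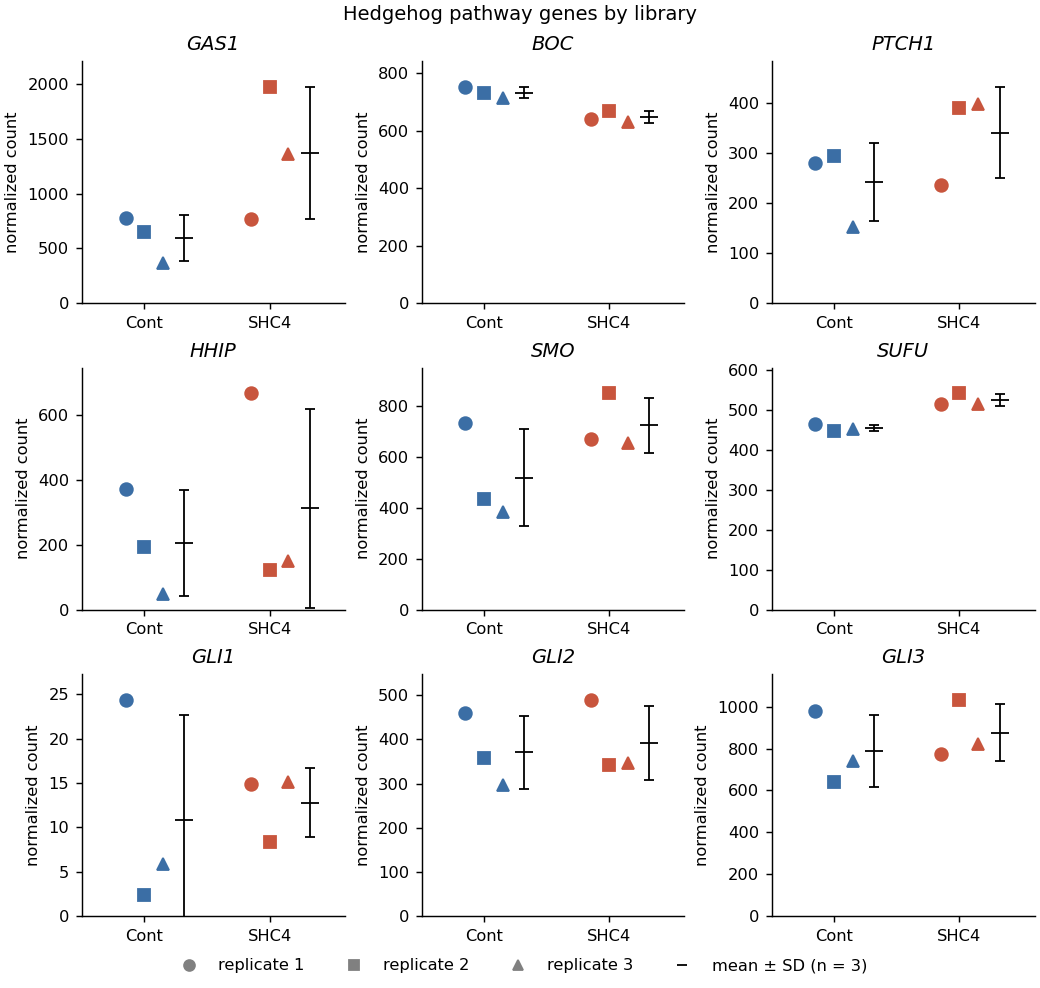
Normalized count (vertical axes, linear from 0) of the 9 Hedgehog members in 3 UE7T-9 Cont (blue) and 3 UE7T-9 SHC4 (red) libraries, with the marker shape giving the replicate number and black bars the mean ± SD (n = 3), the lower arm of GLI1 in UE7T-9 Cont being cut at 0. SUFU (514.7 to 540.2 against 447 to 463) and BOC (629 to 669 against 712 to 752) separate the groups by small steps, while GAS1 reaches 1974 in UE7T-9 SHC4 and HHIP is highest in replicate 1 of both groups.

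Among the co-receptors, GAS1 had the largest log2 fold change of the 9 members with all 6 libraries, and BOC the only one below 0. GLI1 exceeded GAS1 without UE7T-9 Cont replicate 1 (1.48 against 1.38), as did HHIP (1.04) and GLI1 (0.94) without UE7T-9 SHC4 replicate 2, where GAS1 was 0.84. GAS1 is a cell surface protein, first described as growth arrest specific, that presents Hedgehog ligand to PTCH1. The gene lies on the minus strand of chromosome 9 (86944363 to 86947189 in GENCODE 29, on GRCh38). Its normalized count was 776, 652 and 368 in control replicates 1, 2 and 3, the order kept below, against 769, 1974 and 1360.1 in UE7T-9 SHC4. UE7T-9 SHC4 replicates 2 and 3 lay above every control, but replicate 1 lay just under UE7T-9 Cont replicate 1, so the groups overlapped. The means were 599 ± 209 and 1368 ± 602 (SD, n = 3 each), a 2.28-fold difference. In limma this was a log2 fold change of 1.16 (standard error 0.35, 95% interval 0.36 to 1.95, adjusted p = 0.208). DESeq2 gave 1.19 (standard error 0.35, adjusted p = 0.0269), and edgeR an adjusted p of 0.192. When any single library was omitted, the limma value stayed above 0, between 0.84 and 1.52, and the adjusted p between 0.0577 and 0.605.

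BOC, a second ligand-binding co-receptor (chromosome 3, 113211003 to 113287459), was 752, 731 and 712 in the controls against 639.8, 669 and 629 in UE7T-9 SHC4. No UE7T-9 SHC4 library reached the lowest control, a pattern seen in 10.2% of all genes in that direction (two-sided p = 0.1 by an exact permutation test, and 3 libraries against 3 allow none smaller). The log2 difference for BOC was -0.18 (standard error 0.11, 95% interval -0.44 to 0.08, limma adjusted p = 0.507). CFAP44, a cilium and flagellum gene annotated on the opposite strand over part of BOC, ran the other way, with 69.2, 69.5 and 82.6 in the controls against 111, 128 and 118 in UE7T-9 SHC4 (limma adjusted p = 0.204). As the library kit named in the labels does not mark strand, reads from the shared stretch could not be assigned to a strand. CDON, the related co-receptor that is not among the 9 genes, had 257, 175 and 137 in the controls against 223, 358 and 313 in UE7T-9 SHC4. Its log2 fold change was 0.67 (standard error 0.26, limma adjusted p = 0.294), and the groups overlapped through UE7T-9 Cont replicate 1.

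The receptor PTCH1 (chromosome 9, 95442980 to 95517057) is both the binding site of the ligand and the pathway's own target. Its normalized count was 281, 293 and 152 in the controls against 236, 389 and 397 in UE7T-9 SHC4. UE7T-9 SHC4 replicate 1 fell between the controls, and the other 2 UE7T-9 SHC4 libraries lay above all of them. Limma gave a log2 fold change of 0.51 (standard error 0.29, 95% interval -0.14 to 1.16, limma adjusted p = 0.456). It ranged from 0.21 without UE7T-9 Cont replicate 3 to 0.75 without UE7T-9 SHC4 replicate 1. Of 9 listed receptors and ligand binders outside the members, CDON included, 7 were tested. Among these 5 were higher and 2 lower, the median log2 fold change was 0.41, and limma, edgeR and DESeq2 called 0. An unadjusted limma p below 0.05 was found for 3 of the 7, all higher, against 7.47% of all genes in that direction.

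HHIP (chromosome 4, 144646021 to 144745271), a membrane protein that binds and sequesters Hedgehog ligand, had the widest fold range of the members over the 6 libraries. Its normalized count was 373, 192 and 49.2 in the controls against 666, 123 and 149 in UE7T-9 SHC4. Replicate 1 was the highest library of each group, and the lowest of all, UE7T-9 Cont replicate 3, was 13.5-fold below the highest. The log2 fold change of 0.59 had a standard error of 0.77 and a 95% interval from -1.14 to 2.33 (limma adjusted p = 0.772). It was -0.17 without UE7T-9 SHC4 replicate 1, -0.21 without UE7T-9 Cont replicate 3 and 1.23 without UE7T-9 Cont replicate 1. The antisense gene HHIP-AS1, which overlaps HHIP, had the same high libraries, with 193, 82.4 and 36.4 in the controls against 206, 90.7 and 118 in UE7T-9 SHC4. The 5 other measured genes that overlap a member or start near it had normalized counts of at most 10.5. Reads of the overlapping part of HHIP and HHIP-AS1 cannot be told apart in these libraries.

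**Figure D2:**
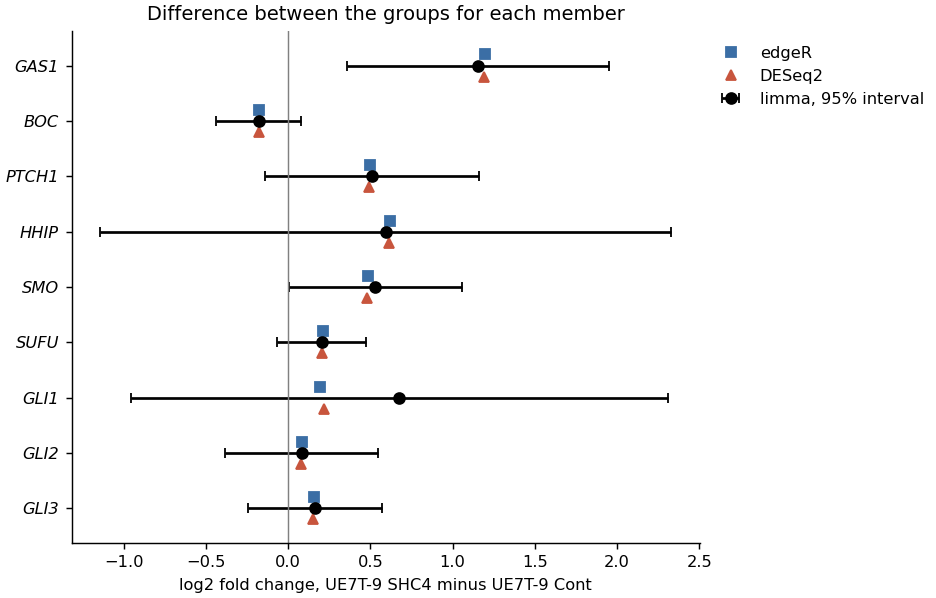
Log2 fold change of each member (horizontal axis, UE7T-9 SHC4 minus UE7T-9 Cont) from limma with its 95% interval (black), edgeR (blue squares) and DESeq2 (red triangles). The intervals of GAS1 (0.36 to 1.95) and SMO (0.003 to 1.06) lie above 0 before adjustment across genes, and those of HHIP and GLI1 are the widest.

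SMO (chromosome 7, 129188872 to 129213545), the membrane protein that carries the signal into the cell, was 735, 436 and 385 in the controls against 669.7, 849 and 653 in UE7T-9 SHC4. UE7T-9 Cont replicate 1 lay inside the range of UE7T-9 SHC4, and the other 2 controls lay below it. For SMO the log2 fold change was 0.53 (standard error 0.23, limma adjusted p = 0.343, unadjusted p = 0.049). Without UE7T-9 Cont replicate 1 it was 0.81, with an adjusted p of 0.0198 in limma, and in that fit limma called 690 of all genes higher (2.99%) and 621 lower (2.69%). SUFU (chromosome 10, 102503987 to 102633535), the cytoplasmic partner that retains GLI proteins, was 463, 447 and 452 in the controls against 515, 540.2 and 514.7 in UE7T-9 SHC4. The SUFU groups did not overlap (two-sided p = 0.1, exact permutation), and the log2 fold change was 0.20 (standard error 0.12, 95% interval -0.07 to 0.47, limma adjusted p = 0.468). SUFU and BOC were the members without overlap between groups, 2 of 9, against 19.3% of all genes in either direction. Under scaling by library total the SUFU value was 0.10 and that of BOC -0.28.

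The GLI factors showed no difference larger than their spread. GLI1 (chromosome 12, 57460135 to 57472262), an activator whose own transcript is a sensitive readout of the pathway, had 25, 2 and 6 reads in the controls against 17, 10 and 13 reads in UE7T-9 SHC4. The normalized counts were 24.4, 2.35 and 5.90 in the controls against 14.9, 8.32 and 15.1 in UE7T-9 SHC4. UE7T-9 Cont replicate 1 was the highest library of all, and replicate 2 was under the level of 3 reads. GLI1 had a log2 fold change of 0.68 in limma (standard error 0.72, 95% interval -0.95 to 2.31, adjusted p = 0.712) and 0.22 in DESeq2 (adjusted p = 0.939). It ran from 0.02 without UE7T-9 Cont replicate 2 to 1.48 without UE7T-9 Cont replicate 1. No tool called GLI1, and the limma interval holds both a fall and a rise. The DESeq2 value had a standard error of 0.86. How far the few reads or the spread between libraries set this error was not tested.

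GLI2 (chromosome 2, 120735623 to 120992653), the main activator of the pathway, was 459, 358 and 296 in the controls against 489.5, 341 and 346 in UE7T-9 SHC4. The difference for GLI2 was 0.08 on the log2 scale (standard error 0.21, 95% interval -0.38 to 0.55, limma adjusted p = 0.89), which became -0.020 under scaling by library total. GLI3 (chromosome 7, 41960950 to 42237870), which is mostly processed to a repressor when ligand is absent, was 981, 642 and 743 in the controls against 774, 1032 and 822 in UE7T-9 SHC4. For GLI3 it was 0.16 (standard error 0.18, 95% interval -0.24 to 0.57, limma adjusted p = 0.725). For both genes the groups overlapped over most of their range.

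**Figure D3:**
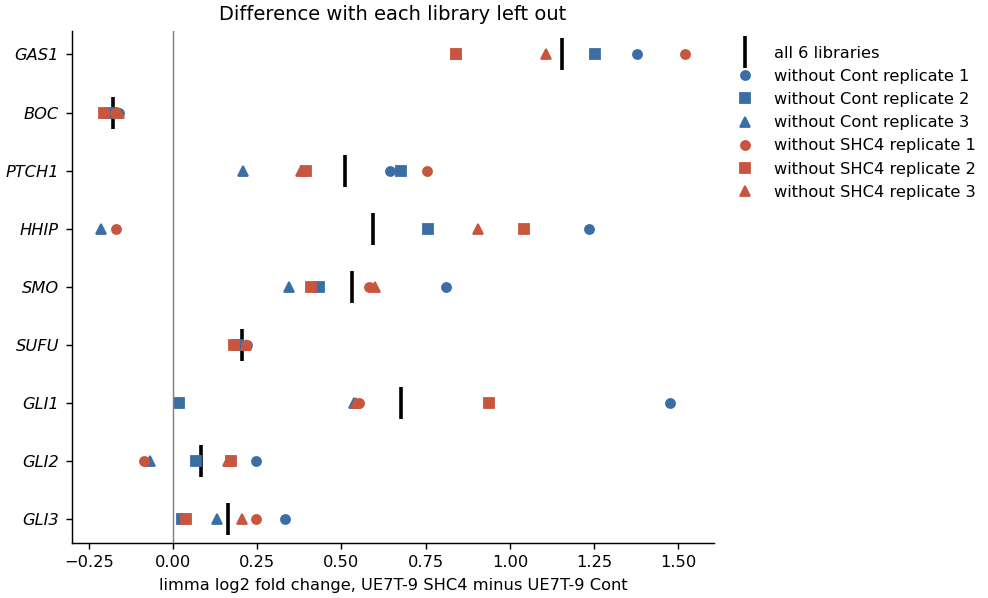
Limma log2 fold change of each member (horizontal axis) with all 6 libraries (black bar) and with each UE7T-9 Cont (blue) or UE7T-9 SHC4 (red) library left out, the marker shape giving the replicate number. BOC (-0.21 to -0.16) and SUFU (0.18 to 0.22) hardly move, GAS1 stays between 0.84 and 1.52, and HHIP crosses 0 (-0.21 to 1.23).

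Per length of exon, GAS1 and SMO were the most abundant members and GLI1 the least. The levels per kb of exon, meaning the normalized count over the union of annotated exons, are descriptions over all 6 libraries. GAS1 had a median of 273 (130.1 to 698) and SMO one of 153 (89.2 to 197), and GAS1 lay above SMO in 6 of 6 libraries although the ranges overlapped. GLI3 (median 72.9), SUFU (71.2) and BOC (66.9) formed a group whose ranges overlapped. GLI3 lay above SUFU in 4 of 6 libraries and SUFU above BOC in 3 of 6. The latter was the split of the groups. SUFU lay below BOC in all 3 controls (65.2 to 67.4 against 68.9 to 72.8). It lay above BOC in all 3 UE7T-9 SHC4 libraries (74.975 to 78.7 against 60.9 to 64.8). This crossing depends on the exon union as length. Per kb of the longest coding transcript, BOC had a mean of 148 over the 6 libraries and SUFU one of 97.7. GLI2 followed with a median of 47.9 (40.3 to 66.7). HHIP (median 14.1, 4.07 to 55.2) and PTCH1 (median 17.3, 9.19 to 23.9) overlapped, with HHIP above PTCH1 in 2 of 6 libraries. GLI1 had a median of 2.77 (0.56 to 5.80), and its range lay wholly below that of PTCH1. The union of all annotated exons of PTCH1, coding or not, is 16591 bases. The longest of its 15 coding transcripts is 8232 bases, and the choice of length changes the levels. By means of the 6 libraries, BOC was 66.7 per kb of exon union and 148 per kb of the longest coding transcript, which moved it from the fifth to the third place. PTCH1 had means of 17.6 and 35.4 by these lengths, against 21.4 and 25.7 for HHIP, whose mean rests on UE7T-9 SHC4 replicate 1.

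**Figure D4:**
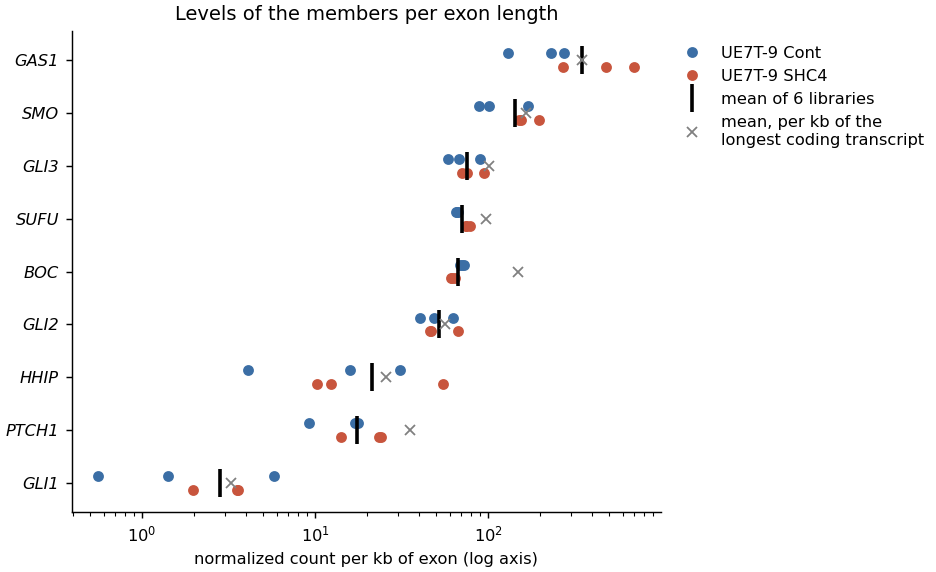
Normalized count per kb of exon (horizontal log axis) for each member in UE7T-9 Cont (blue) and UE7T-9 SHC4 (red) libraries, with the mean of 6 libraries as a black bar and the mean per kb of the longest coding transcript as a grey cross. GAS1 and SMO lie at the top, GLI3, SUFU and BOC share 1 range, and GLI1 lies below 6 per kb in every library.

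Ligand transcripts were at the edge of detection. SHH, the ligand sonic hedgehog, had a normalized count of 1.16 to 5.83 over the 6 libraries, and DHH, desert hedgehog, one of 0.984 to 4.39. IHH was not analysed here. HHAT, the acyltransferase that modifies the ligands, was well detected (235 to 501), as was DISP1, which releases them (209 to 359). Of 9 listed genes for ligands and their release, 7 were tested and 0 were called by limma, edgeR or DESeq2, with 1 unadjusted limma p below 0.05, against 7.47% of all genes higher and 6.96% lower. That gene was DISP2, a homolog of DISP1, with 19.5, 17.7 and 12.8 in the controls against 39.5, 38.3 and 33.8 in UE7T-9 SHC4. The DISP2 groups did not overlap, as for 9.13% of all genes in that direction, and the log2 fold change was 1.13 (standard error 0.34, limma adjusted p = 0.203).

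Of the 21 genes for GLI processing, 10 were higher and 11 lower. Their median log2 difference was -0.017, and limma and edgeR called 0 of them. DESeq2 called 1, STK36, higher in UE7T-9 SHC4, against 2.06% of all genes higher. STK36, the human homolog of the fly kinase Fused, was 689, 766 and 546 in the controls against 981, 1126 and 1026 in UE7T-9 SHC4. Groups did not overlap for 4 of the 21 genes higher and 2 lower, against 9.13% and 10.2% of all genes. STK36 was among the higher ones, and its log2 difference was 0.66 (standard error 0.15, limma adjusted p = 0.148, DESeq2 adjusted p = 0.018). BTRC, a substrate receptor of the ubiquitin ligase that acts on GLI proteins, had 527, 606 and 678 in the controls against 442, 474 and 461 in UE7T-9 SHC4 (limma log2 fold change -0.39, standard error 0.14, adjusted p = 0.259).

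Of the 16 genes for the passage of Hedgehog proteins through the cilium, the log2 fold change was above 0 for 12 and below 0 for 4. The median log2 fold change was 0.26, 0 were called by limma, edgeR or DESeq2, and 6 had an unadjusted limma p below 0.05, all higher, against 7.47% of all genes in that direction. Groups did not overlap for 7 of the 16, of which 6 were higher, against 19.3% of all genes in either direction and 9.13% higher. GPR161, a ciliary receptor that keeps the pathway off through PKA, was 637, 578 and 574 in the controls against 729, 808 and 836 in UE7T-9 SHC4 (log2 fold change 0.41, standard error 0.12, limma adjusted p = 0.205). IQCE, which anchors the EVC complex at the cilium base, was 727, 626 and 539 in the controls against 788, 958 and 934 in UE7T-9 SHC4 (log2 fold change 0.51, standard error 0.15, limma adjusted p = 0.201). KIF7, the kinesin that regulates GLI proteins at the cilium tip, was 411, 411 and 351 in the controls against 435, 433 and 419 in UE7T-9 SHC4 (log2 fold change 0.14, standard error 0.13, limma adjusted p = 0.68). Of the intraflagellar transport genes in this list, IFT27, IFT88 and IFT172 had log2 fold changes of 0.34, 0.25 and 0.42 and IFT25 one of -0.14. Without UE7T-9 Cont replicate 1, limma called IQCE, IFT172 and DYNC2H1, the last of which encodes the motor of retrograde transport in the cilium, all higher, in a fit that called 2.99% of all genes higher.

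**Figure D5:**
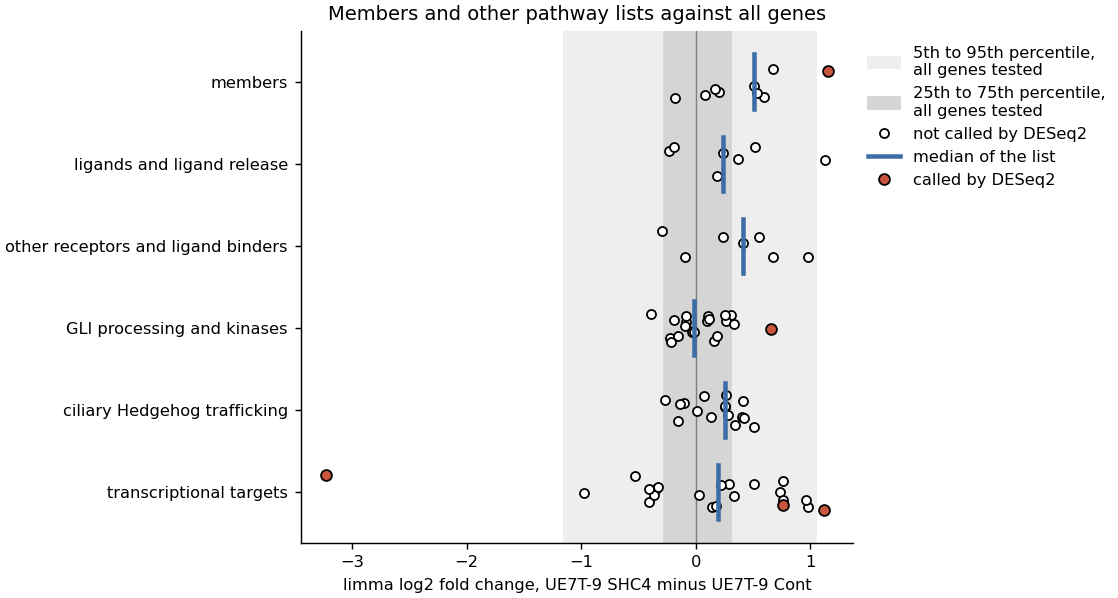
Limma log2 fold change (horizontal axis, UE7T-9 SHC4 minus UE7T-9 Cont) of the members and of 5 lists of other pathway genes, filled where DESeq2 called the gene, with the list median as a blue bar and grey bands for the 5th to 95th and 25th to 75th percentiles of all genes tested. GAS1 (1.16) lies above the 95th percentile of all genes (1.05), the GLI processing genes lie on both sides of 0, and SPP1 has the lowest value shown at -3.23.

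Of 24 listed transcriptional targets, 22 were tested, 14 were higher and 8 lower, and the median log2 fold change was 0.20. Limma and edgeR called 0 of them, 4 were higher and 2 lower at an unadjusted limma p below 0.05, against 7.47% and 6.96% of all genes. DESeq2 called HAND2 and IGFBP6 higher and SPP1 lower, against 2.06% of all genes higher and 2.08% lower. Without its filters DESeq2 called SPP1 alone of these. The list pools targets of several tissues, and most of its genes have other inputs as well. HAND2, a limb and heart transcription factor, was 458, 410 and 420.0 in the controls against 497, 984 and 780.2 in UE7T-9 SHC4 (DESeq2 log2 fold change 0.81, adjusted p = 0.0424, limma adjusted p = 0.201). IGFBP6, which binds IGF2, was 4356, 2306 and 1615 in the controls against 7151, 4648 and 5049 in UE7T-9 SHC4 (DESeq2 log2 fold change 1.03, adjusted p = 0.04997, limma adjusted p = 0.197). SPP1, the bone matrix protein osteopontin, was 1040.1, 10458 and 17769 in the controls against 349.8, 708 and 943 in UE7T-9 SHC4. UE7T-9 Cont replicate 1 lay just above the highest UE7T-9 SHC4 library, and the log2 fold change was -3.23 (standard error 0.88) with a limma adjusted p of 0.187, while DESeq2 gave -3.87 with an adjusted p of 0.00959. The limma value ran from -2.42 without UE7T-9 Cont replicate 3 to -4.47 without UE7T-9 Cont replicate 1, where SPP1 was called (adjusted p = 0.000698).

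The genes whose profile over the 6 libraries was most like that of GLI1 were sought among 12678 genes that averaged a normalized count of 50 or more. The measure was the root mean square difference of log2 values after each profile had been centred. The nearest were 2 pseudogenes on chromosome 6, ENSG00000216775 (0.472) and ENSG00000218426 (0.479), and FAM78A (0.49). Reads of a pseudogene may come from its parent gene, so both are uncertain. Among the pathway genes the nearest was IGFBP6 (0.678), at rank 205, and the nearest member was SMO (0.737), at rank 498. GLI1 itself had only 2 to 25 reads per library, so its profile and the order of these genes are uncertain.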

How the data were processed

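RNA of 6 samples, 3 per group, had been sequenced after NEBNext Ultra library preparation. The authors deposited 1 signal per gene and library, a gene count divided by a size factor. The submitters' processing notes name HISAT2 2.0.5, featureCounts 1.5.0-p3 and DESeq2. The genome build and annotation are not given in the sources used here. All values were whole multiples of the value of 1 read (100% within 0.01 reads), and the reads were recovered by division. Groups and replicate numbers came from the sample titles.

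Genes with a mean of at least 1 were tested with limma 3.58.1 (R 4.3.3, mean-variance trend) after a log2(value + 1) transform, and Benjamini-Hochberg adjustment covered all genes. The added 1 pulls the log2 values of low genes together. For GLI1 the limma value was 0.68 with 1 added and 0.81 with 0.1 added, but DESeq2 gave a smaller one of 0.22. DESeq2 1.42.0 and edgeR 4.0.16 (quasi-likelihood) were run on the recovered reads as alternatives, with the other settings given below, and all 3 tools were tested on simulated data. The members and lists were chosen with earlier results of these data known. Named genes were the 9 members, SHC4, listed genes called by any tool, SHH, DHH, CDON, KIF7, GPR161, the 2 genes of smallest p per list, genes overlapping a member, and the 3 most like GLI1. SCUBE3, HHAT, the IFT genes and DYNC2H1 were added after their values were seen. IHH, GPC3, NKX2-2 and MYCN were not analysed here, and a named gene that the rule also covers is not reported here. Positions and exon lengths are from GENCODE 29, matched by identifier, and promoters from RefSeq.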

Additional observations from a re-analysis of the deposited data

How the results depend on the processing

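The counts of called genes depended on the test. Against 13 higher and 2 lower, DESeq2 called 333 and 336 and, without its filters (added after seeing the data), 241 and 248. In the same order, edgeR called 10 and 1, library size scaling 22 and 6, and TMM normalization 21 and 4. Without a filter on low values limma called 33 and 10, and with pseudocount 0.1 it called 12 and 1. With 1 library left out, the counts ran from 1 to 690 higher and from 0 to 621 lower, the largest without UE7T-9 Cont replicate 1. Members called higher numbered 1 with DESeq2, with or without its filters, and 0 to 1 with a library left out. GLI processing genes called numbered 1 under both DESeq2 settings and 0 to 1 with a library left out, ciliary genes 0 to 3, and targets 3 with DESeq2, 1 without its filters and 0 to 2 with a library left out. The members' median log2 fold change was 0.21 in edgeR, 0.22 in both DESeq2 settings, and 0.19 to 0.65 with a library left out. GAS1 was called in DESeq2 (1.19) with and without its filters. GLI2 became -0.020 under library size scaling and ran from -0.087 to 0.25 with a library left out, HHIP from -0.21 to 1.23, SMO from 0.34 to 0.81, SHH from -0.73 to 0.10 and DHH from -0.20 to 0.60. The longest coding transcript as length gave 101 per kb for GLI3, 97.7 for SUFU, 148 for BOC and 35.4 for PTCH1. The cause of these shifts was not tested, and the 3 libraries per group and the 2 to 25 reads of GLI1 limit what could be seen.

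Adding a replicate block to the limma model gave 28 genes higher and 19 lower, and 1 target, SPP1 (adjusted p = 0.0483), but no member. After subtraction of group means, libraries with the same number correlated at 0.148, 0.013 and -0.007, which is not above 0.1 in every pair, so the number was not used as a pairing. The replicate 1 pair had the highest of the 9 values between groups, and a shared source of these 2 libraries was not tested. UE7T-9 Cont replicate 2 correlated best with UE7T-9 SHC4 replicate 3 (0.0992).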

Other observations

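SCUBE3, a secreted protein of the family that helps release Hedgehog ligands, had the same high libraries as HHIP. Its normalized count was 6385, 1820.1 and 735 in the controls against 6225, 1333 and 1675 in UE7T-9 SHC4, so that replicate 1 of both groups lay over 3 times above every other library. The log2 fold change between groups was 0.23 (standard error 0.76, limma adjusted p = 0.917). COL1A1, the main chain of collagen I, was also highest in replicate 1 of both groups, at 315042 and 276719, against 67813 to 130035 in the other libraries. SCUBE3 and COL1A1 were chosen after their values were seen.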
